A study of Mus musculus with 11 samples.

Results

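De novo lipogenesis is the synthesis of fatty acids from acetyl-CoA, and 9 genes of this pathway were followed through the differentiation of mouse fat cells. They were chosen by gene symbol for their known roles, though with earlier results of these data known. They make up 9 of the 29955 gene symbols with a representative sense transcript in the RNA-sequencing (RNA-seq) tables. 6 encode enzymes or the carrier that feeds them, namely Slc25a1, Acly, Me1, Acaca, Acacb and Fasn, and 3 encode regulators, namely Thrsp, Srebf1 and Mlxipl. All 9 had an FPKM (a level scaled to exon length and library total, here computed from mapped bases) of at least 0.1 in some sample and so entered every fit.

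The cells, im-scWAT, were preadipocytes of inguinal subcutaneous white fat immortalized with SV40 large T antigen. They were induced at day 0 with indomethacin, dexamethasone, 3-isobutyl-1-methylxanthine, insulin and T3, the active thyroid hormone, and then kept in insulin and T3, in either case with or without 0.5 µM rosiglitazone (ROS), an agonist of the adipogenic nuclear receptor PPARγ. The time course held 2 samples at day 0, labelled with and without ROS and both treated here as a pair taken before induction, and 1 sample each at days 4 and 8 with ROS and without ROS. A further 5 samples at day 8 with ROS carried a U6-driven short hairpin RNA against mouse Jmjd1a (sh-mJmjd1a, G418 selected) and a retroviral, V5-tagged human JMJD1A (hJMJD1A, zeocin selected), an H3K9 demethylase. They held wild-type hJMJD1A (WT A and WT B), the non-phosphorylatable S265A, the phosphomimetic S265D and S265D-H1120Y, whose catalytic site is also mutated, with 1 sample for each mutant. The transduced cells were selected in bulk as far as the sources state. All 5 samples carried the hairpin, so none was a transduced control free of it. The study reports depletion of endogenous JMJD1A by this hairpin, from immunoblot and qPCR. The labels have ROS withdrawn on day 7, whereas the methods of the study describe its presence through day 8.

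In this pathway the citrate carrier moves citrate out of mitochondria, ATP-citrate lyase splits it into acetyl-CoA and oxaloacetate, and malic enzyme yields NADPH as the oxaloacetate carbon is recycled. Acetyl-CoA carboxylase then makes malonyl-CoA, and fatty acid synthase extends it to palmitate. Insulin acts on the pathway through the transcription factor SREBP1 and carbohydrate through ChREBP, and in fat tissue it is known to be active in fed animals and to be raised by thyroid hormone.

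The libraries held between 3.10 and 5.29 Gb of mapped bases, and the 9 genes took between 0.211% of them in a day 0 sample and 1.02% in WT A. The adipocyte markers (10 genes, among them Adipoq, Plin1 and Fabp4) summed to 285 and 287 FPKM at day 0 and to between 11947 and 36021 FPKM in the time course at days 4 and 8, most of it Fabp4. Of the macrophage and leukocyte markers, Ptprc and Emr1 were listed at 0 in every sample. Cd68, of the same list, was not absent: it ran from 0.541 FPKM at day 4 without ROS to 21.7 FPKM in S265D-H1120Y. Lep, an adipocyte hormone, reached no more than 0.252 FPKM. Kdm3a, the mouse gene for JMJD1A and the target of the hairpin, read 21.1 FPKM in untransduced cells at day 8 with ROS and between 13.0 and 28.5 FPKM in the 5 transduced samples. The knockdown was therefore not visible in these values, and whether reads of the human transgene were placed on the mouse gene was not tested. In these bulk samples fewer cells of a type and less RNA per cell cannot be told apart.

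The promoters of 5 of the genes are shown because their transcripts followed different courses: Acly was highest before differentiation, Fasn at day 4, Thrsp and Mlxipl appeared from near 0, and Acacb was the gene most different with ROS. Each window runs from 250 bases before to 50 bases after a RefSeq transcription start and is written on the gene's strand, with capitals marking matches on either strand to the motifs searched: the E-box CACGTG, the sterol response element core TCACNCCAC, CCAAT and the GC box GGGCGG. Coordinates of the windows are those of RefSeq on GRCm38.p6.
Fasn, chr11:120824498-120824797, minus strand: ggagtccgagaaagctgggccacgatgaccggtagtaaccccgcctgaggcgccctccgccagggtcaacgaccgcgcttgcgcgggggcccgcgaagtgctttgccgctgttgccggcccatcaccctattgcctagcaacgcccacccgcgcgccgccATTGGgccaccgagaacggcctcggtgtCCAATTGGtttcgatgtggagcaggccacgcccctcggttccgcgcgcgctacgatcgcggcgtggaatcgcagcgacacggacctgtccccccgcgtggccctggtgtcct
Acly, chr11:100527951-100528250, minus strand: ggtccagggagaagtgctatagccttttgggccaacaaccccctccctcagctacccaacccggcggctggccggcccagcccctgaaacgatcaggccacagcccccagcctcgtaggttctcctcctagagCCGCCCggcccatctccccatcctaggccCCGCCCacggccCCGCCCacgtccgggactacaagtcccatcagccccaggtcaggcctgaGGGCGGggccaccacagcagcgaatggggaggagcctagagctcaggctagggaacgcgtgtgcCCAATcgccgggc
Thrsp, chr7:97417501-97417800, minus strand: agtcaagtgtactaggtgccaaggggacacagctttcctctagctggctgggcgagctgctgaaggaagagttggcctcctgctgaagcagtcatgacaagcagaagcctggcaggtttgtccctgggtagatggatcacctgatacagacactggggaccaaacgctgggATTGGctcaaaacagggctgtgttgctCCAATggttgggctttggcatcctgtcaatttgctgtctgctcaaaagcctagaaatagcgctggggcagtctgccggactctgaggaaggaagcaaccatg
Mlxipl, downstream start, chr5:135106641-135106940, plus strand: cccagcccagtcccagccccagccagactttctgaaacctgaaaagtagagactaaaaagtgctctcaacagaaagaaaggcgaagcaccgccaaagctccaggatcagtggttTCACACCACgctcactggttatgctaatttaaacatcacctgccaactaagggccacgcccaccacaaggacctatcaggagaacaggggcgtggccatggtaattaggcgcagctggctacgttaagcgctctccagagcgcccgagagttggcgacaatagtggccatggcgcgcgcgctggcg
Acacb, chr5:114165268-114165567, plus strand: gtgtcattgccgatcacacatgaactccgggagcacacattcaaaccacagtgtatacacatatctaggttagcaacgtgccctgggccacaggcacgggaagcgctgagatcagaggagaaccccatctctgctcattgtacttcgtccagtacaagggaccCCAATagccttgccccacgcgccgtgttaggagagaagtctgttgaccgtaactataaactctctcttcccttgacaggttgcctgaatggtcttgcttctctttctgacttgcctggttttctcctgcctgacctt

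The Fasn window held 3 CCAAT matches and the Thrsp window 2, whereas the Acly window held 4 GC boxes and 1 CCAAT. Over all 32851 windows of 300 bases in the RefSeq table, 37.4% held CCAAT and 35.7% the GC box, so neither motif was rare. The E-box was found in 7.15% of all windows and in 2 of the 13 windows of the 9 genes, which were that of Slc25a1 and the upstream start of Mlxipl. The sterol response element core was found in 1.24% of all windows and in 1 of the 13, the downstream start of Mlxipl printed above. In the printed windows matches to different motifs did not overlap, though 2 of the Fasn CCAAT matches overlap each other on opposite strands. They are letters in a window and not sites shown to be bound.

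All 13 windows occurred with identical sequence in mm9, the build of the deposited tables, so the measured transcripts could be set beside them. The representative transcripts of Acly, Acaca, Acacb, Fasn, Me1 and Slc25a1 began at a RefSeq start exactly, and that of Thrsp lay 40 bases away from it. RefSeq lists 3 starts for Srebf1 and 2 for Mlxipl, and the deposited transcripts of each gene shared a single start, within 23 bases of a RefSeq start for Srebf1 and within 22 bases of the downstream start for Mlxipl. The SREBP1 and ChREBP isoforms that differ in their leading exon were therefore not separated here.

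The main change was from day 0 to day 4. Of the 9 genes, 8 rose in either arm, by 2.52-fold to 8.56-fold without ROS among the 6 that were expressed at day 0, and Acly was the exception at 0.799 of its day 0 level. Their median ratio was 4.11 without ROS and 4.79 with ROS, beside medians of 1.02 and 0.961 over all genes counted. Over the 7 genes that reached 0.1 FPKM at day 0 the median ratio was 3.04 without ROS and 3.65 with ROS.

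Slc25a1, the mitochondrial citrate carrier (mm9 chr16:17925304-17928312), read 52.4 and 58.5 FPKM in the day 0 samples. At day 4 it read 140 FPKM without ROS and 160 FPKM with ROS, and at day 8 it read 122 FPKM in either arm. It thus rose early and was lower at day 8 than at day 4, with the ROS and no ROS samples side by side at the end. The fitted log2 ratio of day 4 over day 0 was 1.34 ± 0.115 (SE) without ROS (limma adjusted p = 0.0377). With no minimum FPKM that adjusted p was 0.0589.

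Acly, ATP-citrate lyase (mm9 chr11:100337666-100389314), was the most abundant of the 9 per length in preadipocytes, at 159 and 167 FPKM. It read 130 FPKM without ROS and 129 FPKM with ROS at day 4, and 111 FPKM and 94.4 FPKM at day 8. Every differentiated sample of the time course lay below both day 0 samples. Its log2 ratio at day 4 was −0.32 ± 0.0748 (SE) without ROS, with a limma adjusted p of 0.0997, and −0.33 with ROS, with an adjusted p of 0.0921. Neither passed 0.05.

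Me1, the cytosolic malic enzyme that yields NADPH (mm9 chr9:86474970-86589947), read 57.6 and 58.2 FPKM at day 0. It read 176 FPKM without ROS and 212 FPKM with ROS at day 4, then 153 FPKM and 126 FPKM at day 8. The arm that was higher at day 4 was thus the lower at day 8. Its day 4 log2 ratio was 1.60 ± 0.062 (SE) without ROS (limma adjusted p = 0.0275).

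Acetyl-CoA carboxylase is encoded by 2 genes. Acaca (mm9 chr11:84008940-84215153) encodes the cytosolic form ACC1, whose malonyl-CoA goes into fatty acids, and Acacb (mm9 chr5:114615527-114700767) encodes ACC2 at the outer mitochondrial membrane, whose malonyl-CoA restrains entry of fatty acids into mitochondria for oxidation. Acaca read 17.2 and 17.8 FPKM at day 0, 46.0 FPKM without ROS and 47.0 FPKM with ROS at day 4, and 39.6 FPKM and 37.9 FPKM at day 8. Acacb read 1.11 and 1.05 FPKM at day 0, 9.23 FPKM without ROS and 13.5 FPKM with ROS at day 4, and 12.8 FPKM and 47.4 FPKM at day 8. Acaca followed the same course in either arm, while Acacb had its highest value at day 8, most of all with ROS. Within a sample, the FPKM ratio of Acacb to Acaca went from 0.0646 and 0.0587 at day 0 to 0.324 at day 8 without ROS and 1.25 at day 8 with ROS. A shorter Acaca transcript with an upstream start (mm9 chr11:83943174-84027792), which overlaps the representative, read 3.82 and 4.94 FPKM at day 0 and 15.8 and 16.0 FPKM at day 4, so it too was higher at day 4. Only in the untransduced day 8 sample with ROS did Acacb exceed Acaca, among all 11 samples.

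**Figure D1:**
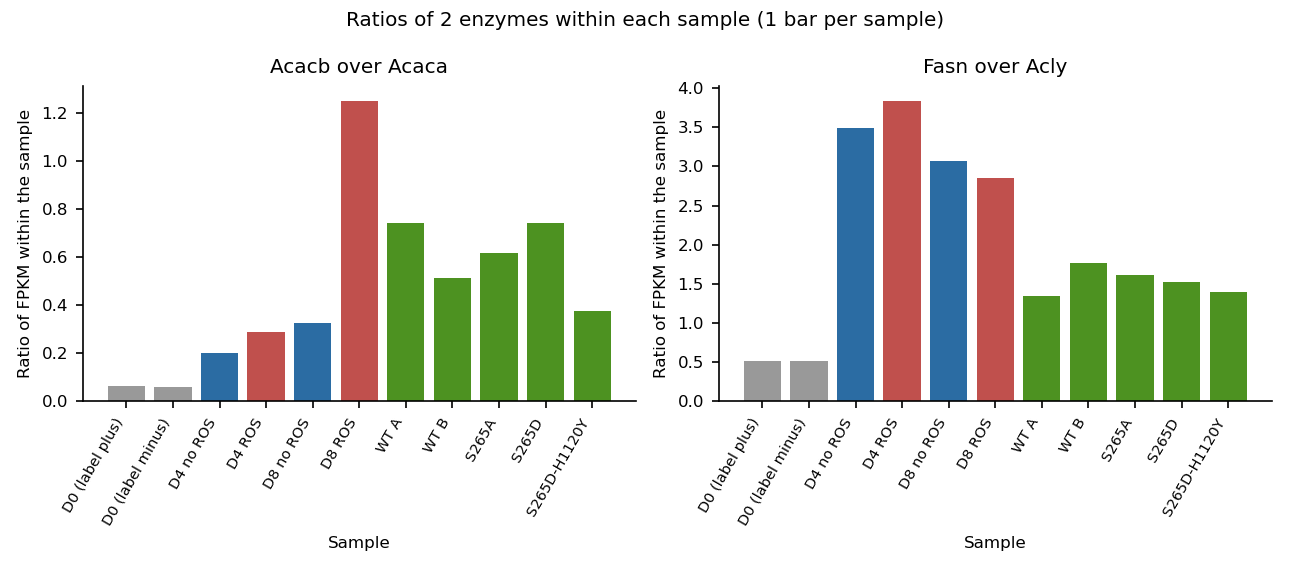
Ratios of FPKM within each of the 11 samples, Acacb over Acaca on the left and Fasn over Acly on the right, with 1 bar per sample, grey for day 0, blue without ROS, red with ROS and green for the transduced samples. Acacb over Acaca is highest, at 1.25, in the untransduced day 8 sample with ROS, and Fasn over Acly is about 0.51 in either day 0 sample and above 1 in all others.

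Fasn, fatty acid synthase (mm9 chr11:120667272-120685861), read 80.6 and 85.4 FPKM at day 0. At day 4 it read 454 FPKM without ROS and 495 FPKM with ROS, the highest level of any of the 9 genes in those samples. At day 8 it read 340 FPKM without ROS and 269 FPKM with ROS. Its day 4 log2 ratio was 2.45 ± 0.0797 (SE) without ROS and 2.58 with ROS (limma adjusted p = 0.0275 and 0.0236). Fasn over Acly within a sample went from 0.508 and 0.513 at day 0 to 3.49 and 3.84 at day 4.

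Thrsp, also called Spot 14 and named for its response to thyroid hormone (mm9 chr7:104561467-104566020), was listed at 0 and at 0.0411 FPKM at day 0, the latter from 198 mapped bases. It read 217 FPKM without ROS and 237 FPKM with ROS at day 4, and 214 FPKM and 339 FPKM at day 8. It went from undetected in a day 0 sample to the most abundant of the 9 at day 8 with ROS. Because the day 0 values rest on so few bases, no fold is given, and its fitted log2 ratio depends on the value added before the logarithm (limma adjusted p = 0.0275 without ROS and 0.0235 with ROS). With 0.01 FPKM added in place of 0.1, the adjusted p was 0.0562 and 0.0504.

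Srebf1, which encodes the transcription factor SREBP1 (mm9 chr11:60012591-60034106), read 39.0 and 41.7 FPKM at day 0. It read 166 FPKM without ROS and 193 FPKM with ROS at day 4, and 197 FPKM and 184 FPKM at day 8. The 4 differentiated samples lay close together, well above the day 0 pair. Its day 4 log2 ratio was 2.04 ± 0.0854 (SE) without ROS and 2.26 with ROS (limma adjusted p = 0.0275 and 0.0236).

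Mlxipl, which encodes ChREBP, the carbohydrate-responsive partner of MLX (mm9 chr5:135582783-135613792), was listed at 0.0134 FPKM, from 198 mapped bases, and at 0 at day 0. It read 7.20 FPKM without ROS and 6.19 FPKM with ROS at day 4, and 12.6 FPKM and 15.3 FPKM at day 8. It was the least abundant of the 9 at day 4 in either arm and read higher at day 8 than at day 4. Its limma adjusted p for day 4 was 0.0275 without ROS and 0.0235 with ROS, and no fold is given for the same reason as for Thrsp. The tables also list this locus under its older symbol Wbscr14, with the same start and end.

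**Figure D2:**
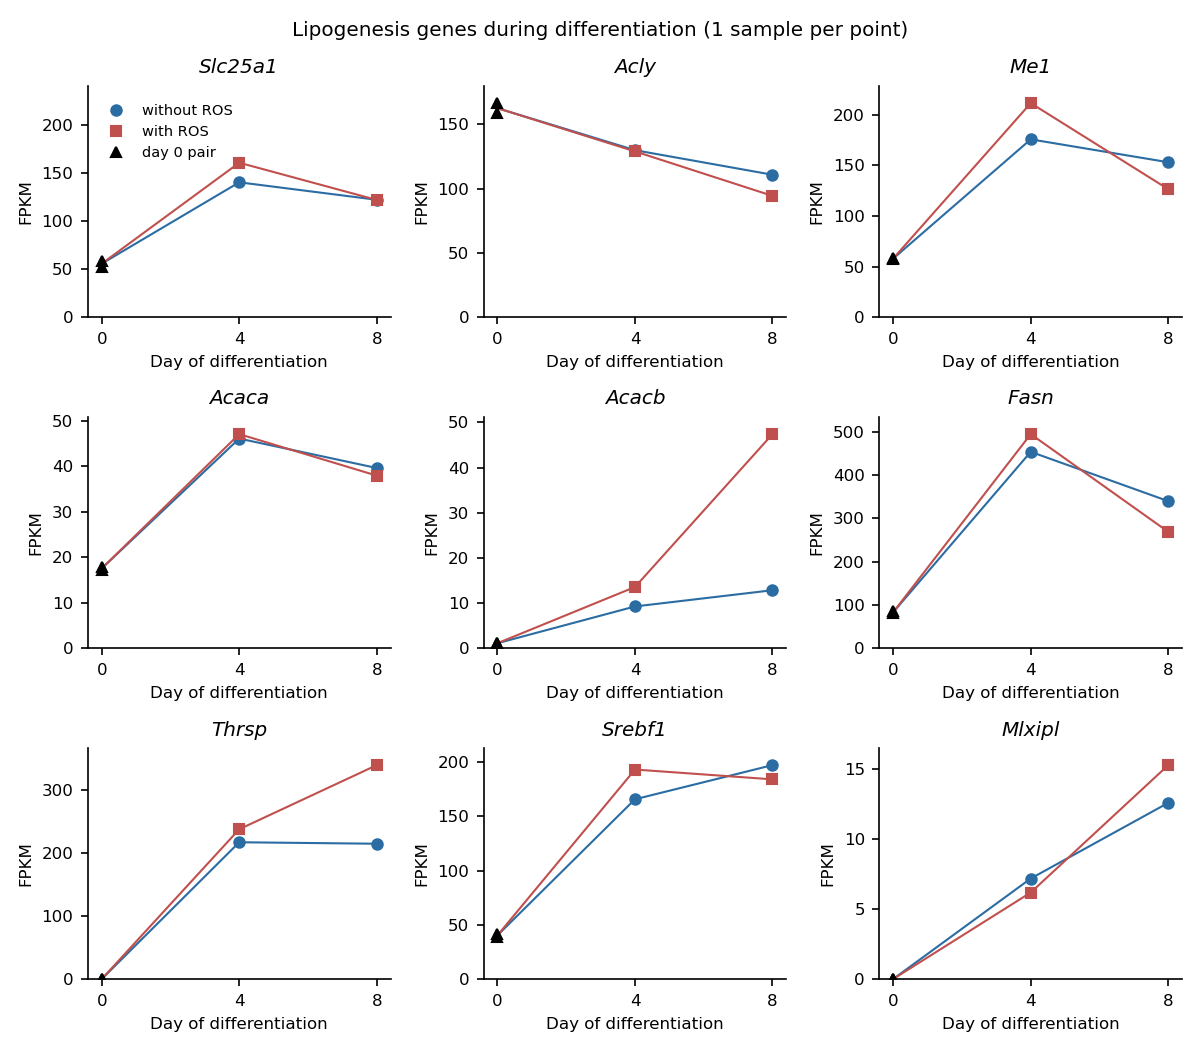
FPKM of each of the 9 genes (y axes, linear from 0) against day of differentiation, with 1 sample per point, blue without ROS, red with ROS and black triangles for the day 0 pair, whose mean starts the lines. Acly is highest at day 0, Slc25a1, Me1, Acaca and Fasn peak at day 4, and Acacb and Mlxipl are highest at day 8.

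By limma, with the spread taken from the day 0 pair, 8 of the 9 genes passed an adjusted p of 0.05 as higher at day 4 without ROS, where 15.2% of the 16400 genes tested were called higher and 13.9% lower. With ROS it was the same 8, where 17.1% of genes were called higher and 17.6% lower. Thrsp and Mlxipl were under 0.1 FPKM at day 0 and entered the fit through the samples in which they are high, so that their calls add nothing to the count. Of the 7 genes measured at day 0, 6 were called higher in each arm, the exception being Acly. At least 2-fold higher were 8 of 9 in either arm, beside 18.5% of the genes counted without ROS and 17.7% with ROS. Thrsp and Mlxipl add nothing to that count for the same reason, and of the 7 genes measured at day 0 it was 6 in either arm. The day 0 pair differed in these genes by ratios of 0.896 to 1.06, and 0 of the 7 genes that reached 0.1 FPKM there differed by 2-fold, beside 2.96% of all genes counted that were at least 2-fold higher and 1.94% at least 2-fold lower. The calls rest on that close pair: in a fit of all 11 samples, whose spread also includes the more distant WT A and WT B, Thrsp alone was called in each arm and so 0 of the 7 genes measured at day 0, and with either day 0 sample left out of that fit 0 of the 9 were called. With a day 0 sample left out, the median log2 ratio of the 9 ran from 1.99 to 2.09 without ROS, beside 2.04.

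From day 4 to day 8 no gene of the 16400 passed an adjusted p of 0.05 by limma in either arm, a share of 0%, with 4424 genes at an unadjusted p under 0.05 without ROS and 4565 with ROS. Each arm at days 4 and 8 is 1 sample, so its values carry no replicate check of their own. Acaca, Fasn, Me1 and Slc25a1 were highest at day 4 in both arms, a course followed by 13.9% of all genes. Acacb and Mlxipl had a higher value at each later day in both arms, as 14.7% of all genes did, and Acly had a lower one, as 12.1% did. With ROS, Acacb at day 8 was 3.50 times and Mlxipl 2.47 times its day 4 level, so 2 of the 9 were at least 2-fold higher, beside 6.62% of all genes. Without ROS the largest ratio was 1.75, for Mlxipl, and 0 of the 9 were at least 2-fold higher, beside 9.6% of all genes. Fasn at day 8 was 0.543 of its day 4 level with ROS and 0.749 without ROS, and Me1 was 0.598 and 0.871.

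ROS is known to turn these white fat precursors toward a beige, thermogenic state. At day 4 the lipogenesis genes were close in both arms, with ratios of ROS over no ROS between 0.861 for Mlxipl and 1.47 for Acacb, and 0 of the 9 were at least 2-fold higher, beside 2.2% of all genes. At day 8 Acacb was 3.70 times higher with ROS, and it was the 1 gene of the 9 to reach 2-fold, beside 4.0% of all genes. Thrsp was 1.58 times higher with ROS at day 8, and the other 7 had ratios between 0.791 for Fasn and 1.21 for Mlxipl. Over all genes counted the median ratio at day 8 was 0.857.

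The Acacb log2 difference at day 8 was 1.88 ± 0.0894 (SE), with a limma adjusted p of 0.0972, which did not pass 0.05. No gene passed at either day, a share of 0%, with 1862 genes at an unadjusted p under 0.05 at day 4 and 5011 at day 8. Restricting the fit to genes with at least 1 FPKM brought the limma adjusted p of Acacb to 0.0466, in a fit that called 895 genes. The ROS effect on Acacb at day 8 minus that at day 4 was 1.33 ± 0.126 (SE) on the log2 scale (limma adjusted p = 0.256), and no gene passed that test, a share of 0%, with 2763 at an unadjusted p under 0.05. Scaling by median-ratio size factors turned the sign of the small day 8 log2 differences for Acaca, from −0.06 to 0.13, Slc25a1, from −0.0022 to 0.19, and Srebf1, from −0.10 to 0.0928, while Acacb stayed higher with ROS.

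**Figure D3:**
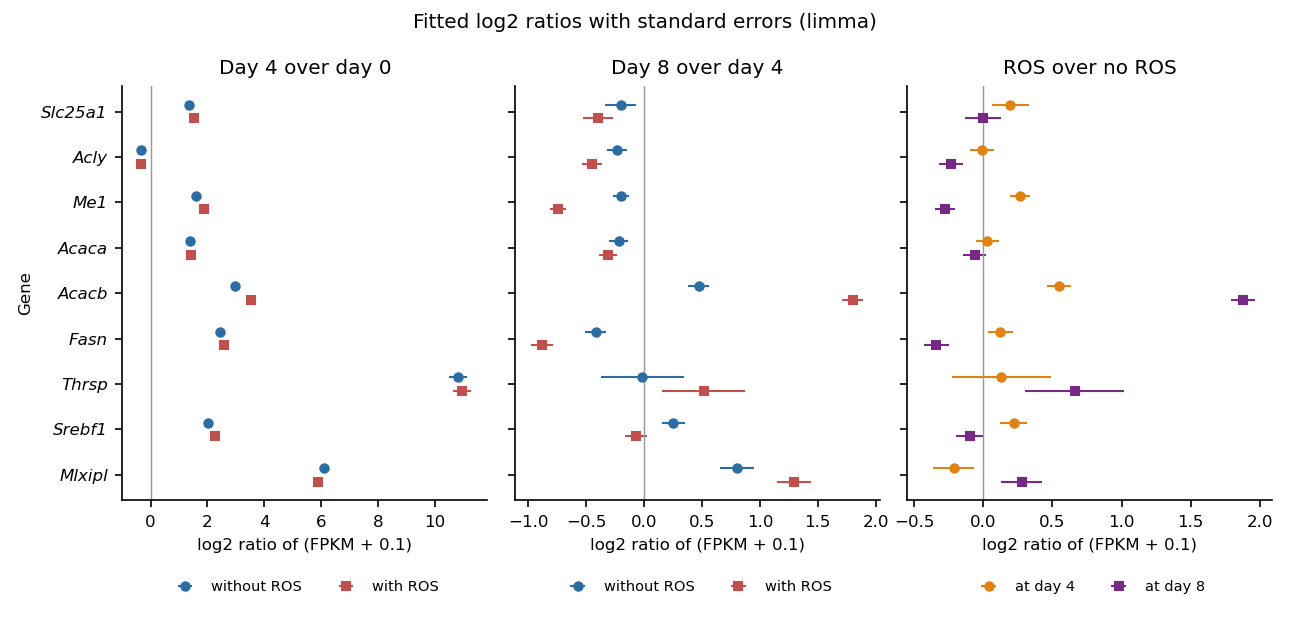
Fitted log2 ratios of (FPKM + 0.1) for the 9 genes, with bars of 1 standard error from limma, for day 4 over day 0, day 8 over day 4 and ROS over no ROS. Acacb stands at 1.80 for day 8 over day 4 with ROS and at 1.88 for ROS over no ROS at day 8, while Acly is below 0 in the left panel and the other 8 genes above it.

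The beige markers (Ucp1, Cidea, Cox8b, Elovl3, Ppara and Otop1) summed to 231 FPKM at day 8 with ROS and to 50.2 FPKM without, the adipocyte markers to 36021 and 11947 FPKM, or to 4619 and 4316 FPKM without Fabp4, and the preadipocyte markers (6 genes found, among them Ly6a, Pdgfra and Cd34) to 143 and 603 FPKM. These moved in the same comparison as Acacb and Thrsp, and their part in it was not tested. The adipocyte markers were divided in this pair of samples, with 6 of 10 above a ratio of 1 and 4 below it, among the latter Pparg at 140 FPKM with ROS and 231 FPKM without.

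Around the 9 genes, 58 of 60 listed genes of the pathway were found in the tables. At day 4 over day 0, 25 of them were called higher and 4 lower without ROS by limma, beside 15.2% and 13.9% of all genes tested, and 30 higher and 4 lower with ROS, beside 17.1% and 17.6%. The most marked were Slc2a4, the insulin-responsive glucose transporter, at 0.0832 FPKM on average at day 0 and 59.3 FPKM at day 4 without ROS, Acsl1, which activates fatty acids, from 8.80 to 679 FPKM, Pnpla3, a lipid droplet acyltransferase and lipase, from 0.0137 to 11.8 FPKM, and Nr1h3, the oxysterol receptor LXRα, from 0.517 to 40.2 FPKM. Each of these 4 was called higher in both arms (limma adjusted p = 0.0235 to 0.0279). They were named for the size of their log2 ratios in this comparison, so their calls are no separate support. Pnpla3, at 0.0183 and 0.0092 FPKM in the day 0 samples, entered the fit only through samples in which it is high. The 25 and 30 calls include it, and the 30 with ROS also include Acss1. Acss1 was listed at 0 in both day 0 samples and at 0.0383 FPKM at day 4 with ROS. It entered the fit only through its day 8 values, 0.18 FPKM with ROS and 0.22 FPKM without. The calls of Pnpla3 and Acss1 thus add nothing to these counts.

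The genes that supply acetyl-CoA and citrate rose together, with all 7 that were counted at least 2-fold higher at day 4 in both arms, beside 18.5% of all genes without ROS and 17.7% with ROS. They included Pcx, pyruvate carboxylase, at 22.6 and 22.8 FPKM at day 0 and 587 FPKM at day 4 without ROS, and Cs, citrate synthase, at 114 and 120 FPKM and then 422 FPKM. Of the 9 genes of NADPH supply 2 were at least 2-fold higher at day 4 in either arm, a share near that of all genes. By limma 2 of the 9 were called higher without ROS, beside 15.2% of all genes tested, and 4 with ROS, beside 17.1%. They included Taldo1, transaldolase, at 71.0 and 77.3 FPKM and then 343 FPKM without ROS. G6pdx, the entry enzyme of the pentose phosphate pathway, was already at 128 and 139 FPKM at day 0 and read 187 FPKM at day 4 without ROS. Acly and G6pdx were thus both well expressed before induction.

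Of the controllers of SREBP1, 3 of 10 were at least 2-fold higher and 1 at least 2-fold lower at day 4 in either arm, beside 18.5% higher and 15.2% lower over all genes without ROS and 17.7% and 18.4% with ROS. Srebf2, which encodes the sterol-responsive SREBP2, read 146 and 155 FPKM at day 0 and 42.2 FPKM at day 4 without ROS, the opposite course to Srebf1. Insig1, which holds SREBP in the endoplasmic reticulum, read 170 FPKM without ROS and 367 FPKM with ROS at day 4, and 90.4 FPKM and 313 FPKM at day 8. It was the 1 pathway gene that was at least 2-fold higher with ROS at day 4. Beyond palmitate, Scd1, stearoyl-CoA desaturase, read 128 and 130 FPKM at day 0 and 1892 FPKM at day 4 without ROS, whereas Elovl6, which elongates palmitate, read 22.3 and 16.2 FPKM at day 0, 2.61 FPKM at day 4 and 1.34 FPKM at day 8 without ROS.

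At day 8, 5 of 56 pathway genes counted were at least 2-fold higher with ROS, beside 4.0% of all genes, and 3 at least 2-fold lower, beside 15.2%. Txnip, an inhibitor of glucose uptake and a target of ChREBP, read 775 FPKM with ROS and 154 FPKM without. Insig1 and Lpin1, a phosphatidate phosphatase and nuclear regulator of lipid genes, were also higher, Lpin1 at 137 and 47.8 FPKM. Elovl6 was lower with ROS, at 0.302 and 1.34 FPKM. The 7 partners and targets of ChREBP counted were divided, with a median ratio of 1.05. Of them 1, Txnip, was at least 2-fold higher and 2 at least 2-fold lower, beside the same 4.0% and 15.2% of all genes. Those lower were Pnpla3, at 9.36 FPKM with ROS and 23.1 FPKM without, and Arrdc4, at 1.07 and 2.41 FPKM. Mlycd, malonyl-CoA decarboxylase, which removes the product of ACC2, read 49.0 FPKM with ROS and 18.9 FPKM without. The transcripts of the enzymes that make and break this malonyl-CoA, Acacb and Mlycd, were thus both higher in the sample with ROS. None of these passed 0.05 by limma (adjusted p = 0.0972 for Txnip, Insig1 and Lpin1). At day 4 the ROS arm had the largest differences in Insig1, in Elovl6 at 1.73 and 2.61 FPKM, in Mlycd at 20.4 and 14.7 FPKM and in Acss2 at 39.9 and 29.1 FPKM, with limma adjusted p between 0.417 and 0.604.

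From day 4 to day 8 without ROS, Acsl1 went from 679 to 175 FPKM, Insig1 from 170 to 90.4 FPKM and Elovl6 from 2.61 to 1.34 FPKM, while Pnpla3 went from 11.8 to 23.1 FPKM. With ROS, Txnip went from 216 to 775 FPKM and Mlycd from 20.4 to 49.0 FPKM, while Elovl6 went from 1.73 to 0.302 FPKM and Arrdc4 from 2.76 to 1.07 FPKM. None of these passed 0.05 by limma, with adjusted p between 0.143 and 0.253. In either arm the pathway genes were divided, with a median ratio of 1.04 without ROS and 1.02 with ROS.

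**Figure D4:**
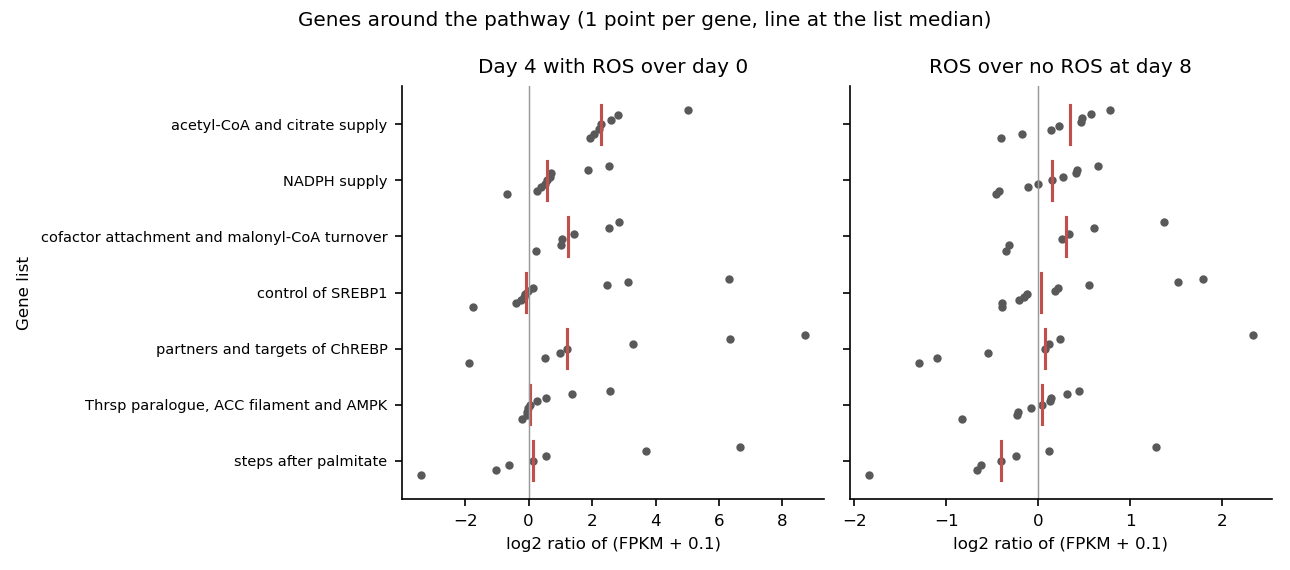
log2 ratios of (FPKM + 0.1) for genes of 7 lists around the pathway (y axis), 1 point per gene with a red line at the list median, for day 4 with ROS over day 0 and for ROS over no ROS at day 8. All points for acetyl-CoA and citrate supply lie above 0 at day 4, while the lists for SREBP1 control and for steps after palmitate hold genes on either side.

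Among the transduced samples, the 2 that carried the same wild-type hJMJD1A were far apart for these genes, and this sets what can be said of the mutants. WT A was the highest of the 5 transduced samples for all 9 genes, beside 29.7% of all genes that were highest in WT A. It was at least 2-fold above WT B for 8 of the 9, beside 10.8% of all genes counted, with a median ratio of 2.57 for the 9 and 0.953 for all genes. Slc25a1 differed most, at 677 FPKM in WT A and 111 FPKM in WT B, and Fasn least, at 379 and 192 FPKM. The mean over the pair was 394 FPKM ± 400 (SD, n = 2) for Slc25a1 and 286 FPKM ± 132 (SD, n = 2) for Fasn.

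The adipocyte markers summed to 15514 FPKM in WT A and 29572 FPKM in WT B, with Fabp4 at 12393 and 26902 FPKM. Without Fabp4 they summed to 3121 and 2670 FPKM, and 7 of the 10 were above a ratio of 1, with a median ratio of 1.47, among them Adipoq at 978 and 738 FPKM. The preadipocyte markers summed to 149 FPKM in WT A and 575 FPKM in WT B, and the beige markers to 214 and 25.8 FPKM. The beige sum and the adipocyte sum without Fabp4 were thus higher in WT A, as the lipogenesis genes were. The preadipocyte sum and the full adipocyte sum were lower there. The part of these lists in the lipogenesis values was not tested.

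The values in S265A and S265D lay between WT A and WT B or near WT B. For Fasn, S265A read 250 FPKM and S265D read 203 FPKM. For Acly, S265A read 155 FPKM and S265D read 134 FPKM, between 281 FPKM in WT A and 109 FPKM in WT B. For Acacb, S265A read 28.1 FPKM and S265D read 31.3 FPKM, between 63.4 and 17.5 FPKM. In S265A, Thrsp lay just below both WT samples, at 86.8 FPKM against 198 FPKM in WT A and 90.7 FPKM in WT B. In S265D it was Srebf1, at 104 FPKM against 247 and 105 FPKM. The other genes lay between the WT samples in each mutant. WT A and WT B were far apart for these genes, and the share of all genes lying between them was not computed.

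Against the mean FPKM of the WT pair, all 9 genes had lower values in S265A (median ratio 0.729, all genes 0.969) and in S265D (median ratio 0.691, all genes 0.987). At least 2-fold lower were 0 of 9 in S265A, beside 7.55% of all genes, and 1 of 9 in S265D, beside 5.56%, namely Slc25a1 at a ratio of 0.384. On the log2 scale, where the pair is averaged after the logarithm, Mlxipl in S265D stood at 0.14 above the pair. These directions depended on WT A. Against WT A alone 5 of 9 were at least 2-fold lower in S265A, beside 8.32% of all genes, whereas against WT B alone 0 were, 8 of 9 had ratios above 1, and 2 of 9, Slc25a1 and Mlxipl, were at least 2-fold higher, beside 5.07% of all genes. The median log2 ratio of the 9 in S265A was −0.21 against the pair, 0.51 with WT A left out and −1.07 with WT B left out, and in S265D it was −0.41, 0.30 and −1.04. By limma no gene passed 0.05 in S265A or in S265D, a share of 0%, with 107 and 99 of 16402 genes at an unadjusted p under 0.05, and the standard errors of the 9 genes ran from 0.628 to 1.38 on the log2 scale.

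S265D-H1120Y against S265D asks what the catalytic mutation does on the phosphomimetic background. All 9 genes had lower values in S265D-H1120Y, with a median ratio of 0.610 beside 0.963 for all genes, and 8 of the 9 were at their lowest of the 5 transduced samples there, beside 23.6% of all genes. The exception was Me1, at 148 FPKM in S265D-H1120Y and 133 FPKM in WT B. At least 2-fold lower than in S265D were 3 of 9, beside 8.66% of all genes. They were Mlxipl at 1.44 and 11.3 FPKM, Acacb at 9.63 and 31.3 FPKM, and Thrsp at 37.2 and 99.8 FPKM. These 3 were also lower in S265D-H1120Y than in WT B, at 4.47, 17.5 and 90.7 FPKM. Fasn read 122 and 203 FPKM, Acly 87.6 and 134 FPKM, Acaca 25.7 and 42.2 FPKM, Slc25a1 103 and 151 FPKM, and Me1 148 and 175 FPKM. Srebf1 had nearly the same value in both, at 103 and 104 FPKM. With 1 sample on either side and the spread of the WT pair, the log2 ratio of Mlxipl was −2.88 ± 1.45 (SE), and no gene passed 0.05 by limma, a share of 0%, with 187 of 16402 at an unadjusted p under 0.05.

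**Figure D5:**
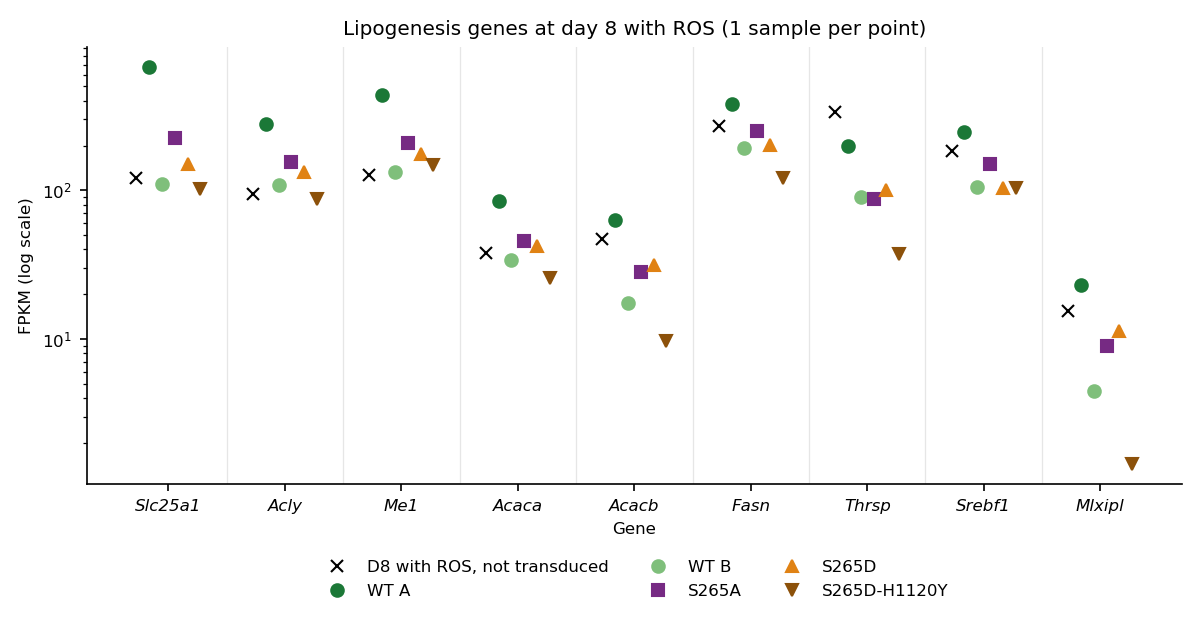
FPKM (log axis) of the 9 genes in the 5 transduced samples and in the untransduced day 8 sample with ROS, 1 sample per point. WT A is above the other transduced samples for every gene, and S265D-H1120Y is below them for every gene but Me1, with its widest gap at Mlxipl, 1.44 FPKM.

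The known partners and targets of ChREBP gave lower values in the same comparison. Of 7 counted, 4 were at least 2-fold lower in S265D-H1120Y than in S265D, with a median ratio of 0.364, beside 8.66% of all genes at least 2-fold lower. Arrdc4, a relative of Txnip, read 0.930 and 5.53 FPKM, Txnip 93.7 and 274 FPKM, Pnpla3 13.1 and 36.0 FPKM, and Rgs16, a regulator of G protein signalling, 0.231 and 1.00 FPKM. None had an adjusted p under 1 by limma. The adipocyte markers summed to 15963 FPKM in S265D-H1120Y and 25459 FPKM in S265D, or 1835 and 2586 FPKM without Fabp4, with Cebpa at 43.2 and 86.4 FPKM, and the beige markers to 85.3 and 161 FPKM, and the part of either in the lipogenesis values was not tested.

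Of the other pathway genes, 8 of 55 were at least 2-fold higher in WT A than in WT B, beside 10.8% of all genes, and 3 at least 2-fold lower, beside 16.4%, with a median ratio of 1.28. Those higher included Slc5a6, the transporter of biotin, the cofactor of both carboxylases, at 37.2 and 9.89 FPKM. Txnip went the other way, at 162 FPKM in WT A and 581 FPKM in WT B. In S265A, the genes furthest from the WT pair were Rgs16, at 0.530 FPKM and a WT mean of 1.15 FPKM, Txnip, at 170 and 372 FPKM, Prkab2, at 10.2 and 6.79 FPKM, and Pnpla3, at 17.9 and 28.2 FPKM. In S265D they were Slc5a6, at 10.8 and 23.5 FPKM, Prkab2, at 10.4 and 6.79 FPKM, Elovl6, at 1.80 and 2.96 FPKM, and Nr1h3, at 30.2 and 48.6 FPKM. For both mutants the limma adjusted p of each was 1. In S265A, Acss2, which makes acetyl-CoA from acetate, read 120 FPKM, equal to 120 FPKM in WT A and above 57.8 FPKM in WT B. Prkab2, a subunit of the kinase AMPK that phosphorylates both carboxylases, was the lowest in WT A at 4.49 FPKM and read between 9.09 and 11.9 FPKM in the other 4. The other AMPK subunits listed were divided. Prkaa2 was also lowest in WT A, at 3.92 FPKM, whereas Prkab1 and Prkag1 were highest there, at 18.3 and 76.5 FPKM. Prkaa1, at 17.4 FPKM in WT A, was neither lowest nor highest there.

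Over the 11 samples, which include the preadipocytes and so mostly measure the step from day 0, the 9 genes separated into Acly and the rest. On log2(FPKM + 0.1), Pearson's r between Acly and the other 8 did not exceed 0.518 and was lowest with Thrsp, at −0.242. Among the other 8 it was highest for Mlxipl with Thrsp, at 0.964, and for Acaca with Me1, at 0.961. These are descriptions over samples that share a time course, and carry no test.

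Among 12415 other genes with a mean of at least 1 FPKM, those closest in course were named by the highest r. For Fasn they were Tbc1d13, Col4a1 and 2310003L22Rik (r = 0.973 to 0.976), and for Srebf1 Ppp1r1a, Isoc2a and Cdo1 (r = 0.983 to 0.988). For Thrsp they were 1190002H23Rik, Lipe, the hormone-sensitive lipase, and Cebpa, an adipogenic transcription factor (r = 0.996 to 0.997). For Mlxipl they were its duplicate entry Wbscr14 (r = 1.00), Apoc2 and Mcam (r = 0.993 and 0.991). For Acacb they were Acad10, Agpat3 and 2300009A05Rik (r = 0.983 to 0.987), for Acaca Ywhag, BC042789 and 1110021L09Rik (r = 0.970 to 0.976), and for Me1 Ywhag, Acaca and BC042789 (r = 0.958 to 0.968). Slc25a1 was closest to Tlcd2, Alg9 and Hebp1 (r = 0.959 to 0.970) and Acly to Rsl24d1, Crybg3 and Stard13 (r = 0.919 to 0.936). Acaca and Me1 thus had 2 of their 3 nearest genes in common, Ywhag and BC042789.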

How the data were processed

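RNA-seq reads of TruSeq libraries from 11 samples had been placed by the authors on UCSC transcripts and on the mm9 genome with Burrows-Wheeler aligner and realigned locally, with versions not given in the sources used here. The authors deposited, per transcript and strand, mapped bases (a coverage signal) and an FPKM that equals those bases scaled to exon length and to the library total. No read counts were used, since mapped bases are not counts. The representative sense transcript of each symbol was taken, and log2(FPKM + 0.1) of genes with at least 0.1 FPKM in some sample was fitted with limma (version 3.58.1) separately in the 6 time course and the 5 transduced samples, with Benjamini-Hochberg adjustment. Spread came only from the day 0 pair or from WT A and WT B, with 1 residual degree of freedom each, and nothing in the sources says that these came from separate cultures, so p-values may measure technical spread. All 10 comparisons were tested. The 2-fold counts used FPKM ratios of at least 2 or at most 0.5 among genes with at least 0.1 FPKM in a sample compared. The fit was tested on simulated data with the same spread in every gene and sample. Such data cannot show how the fit behaves where the spread of a pair differs from that of the other samples. Total mapped bases bound the precision of low genes.

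All 9 genes were to be named, in full or as a range, in each comparison. Of the pathway lists, the 4 genes with the largest log2 ratio and at least 1 FPKM were to be named in each comparison; other genes of the lists, chosen after their values were seen, are given as examples. For likeness, the 3 genes with the highest r were named. The members and lists were chosen with earlier results of these data known. Promoter windows came from RefSeq (GRCm38.p6), in which all 9 genes were present. Alternatives were pseudocounts of 1 and 0.01, no minimum and a minimum of 1 FPKM, the transcript with the highest mean, median-ratio size factors, a fit of all 11 samples, a variance trend and leaving out each sample of a pair. The marker sums without Fabp4 and the counts over the genes measured at day 0 were chosen after seeing the data.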

Additional observations from a re-analysis of the deposited data

How the results depend on the processing

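From day 0 to day 4, 8 of the 9 genes stood higher and Acly lower under each alternative run, whereas the calls depended on which pair gave the spread. In 1 fit of all 11 samples, 251 genes were called without ROS and 442 with ROS. In each arm they held 1 of the 9 genes, Thrsp, which was under 0.1 FPKM at day 0 and so adds nothing to the count. Leaving 1 sample out of that fit gave 0 to 4473 genes and 0 to 8 of the 9 without ROS, and 0 to 5375 genes and 0 to 8 of the 9 with ROS: the counts were 0 without either day 0 sample, when the spread comes from WT A and WT B alone, and highest without WT A. A minimum of 1 FPKM, which leaves fewer genes to adjust over, gave 895 calls for ROS at day 8, among them 1 of the 9, Acacb. The number of genes tested is not given for these settings, so the calls have no share over all genes beside them.

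Median-ratio size factors moved the median log2 ratio of the 9 to −0.21 for day 8 over day 4 with ROS, to 0.19 for ROS at day 4 and, with a change of sign, to 0.13 for ROS at day 8. They also turned Srebf1 to 0.0334 for day 8 over day 4 with ROS and to 0.0239 for S265D-H1120Y over S265D, Acly to 0.0496 for ROS at day 4, and Acaca to 0.13, Slc25a1 to 0.19 and Srebf1 to 0.0928 for ROS at day 8. Before the change these 6 values lay between −0.10 and −0.0022.

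For S265A, leaving out WT B or WT A gave 0 to 2 of the 9 at least 2-fold higher and 0 to 5 at least 2-fold lower, and log2 ratios of −0.86 to 0.50 for Acly, −0.91 to 0.41 for Acaca, −1.17 to 0.68 for Acacb, −0.60 to 0.38 for Fasn, −1.07 to 0.65 for Me1, −1.58 to 1.02 for Slc25a1, −0.72 to 0.51 for Srebf1 and −1.36 to 0.99 for Mlxipl. For S265D it gave 0 to 1 of the 9 at least 2-fold higher and 0 to 7 at least 2-fold lower. Over all genes counted, 5.28% were at least 2-fold higher against WT B alone and 7.71% at least 2-fold lower against WT A alone. The log2 ratios in S265D were −1.07 to 0.29 for Acly, −1.01 to 0.30 for Acaca, −1.01 to 0.83 for Acacb, −0.90 to 0.0779 for Fasn, −1.33 to 0.39 for Me1, −2.16 to 0.45 for Slc25a1, −1.04 to 1.31 for Mlxipl and −0.99 to 0.14 for Thrsp. In each range of log2 ratios, the lower value is without WT B and the higher without WT A. Thrsp for S265A and Srebf1 for S265D stayed below 0 without either.

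The arms at days 4 and 8 and the mutants are 1 sample each, so they have no spread of their own under any setting. Mlxipl and Thrsp at day 0 rest on 0 to 198 mapped bases, which limits any fold for them.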
